A study of Mus musculus with 6 samples.

Results

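Junction and shape genes of kidney epithelium were followed in a mouse podocyte line: Cdh1, Cdh2, Cdh3, Ctnnb1, Ctnna1, Jup, Tjp1, Ocln and Shroom3. They are 9 of the 20659 genes that could be named on the array, and every gene probe with a RefSeq accession of these genes was taken, which gave 11 of 39429 probes. The groups were shTug1 clone 2, shTug1 clone 3 and shControl, with 2 arrays each, called biological replicates in the labels. All cells came from a conditionally immortalized line that carries a temperature-sensitive SV40 T antigen, were grown at 33 °C and differentiated at 37 °C for 10 days. They carried a lentiviral pGIPZ vector, with a hairpin against the long non-coding RNA Tug1 in both shTug1 clones and a scrambled hairpin in shControl, so transduction and differentiation are shared by all 3 groups. Each shTug1 group is 1 clone, and the labels do not say whether the clones carry the same hairpin.

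Podocytes cover the capillaries of the glomerulus with interdigitating foot processes joined by the slit diaphragm, which is regarded as a modified adherens junction that also contains tight junction proteins. Classical cadherins bind their like on the neighbouring cell through their extracellular repeats. Inside the cell they bind β-catenin (Ctnnb1) or plakoglobin (Jup), which in turn bind αE-catenin (Ctnna1), a link to actin. β-catenin is also the transcriptional effector of Wnt signalling. Occludin (Ocln) spans the membrane at tight junctions and ZO-1 (Tjp1) is a scaffold beneath it and at the slit diaphragm, while Shroom3 binds actin and brings a myosin-activating kinase to the apical junction, where it drives apical constriction.

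Values are log2 of the processed intensity relative to each array's 75th percentile over gene spots, so 0 is that percentile, and they are compared between arrays of 1 probe and never between probes. Probes detected, that is well above background, in both replicates of any group entered the test. Each difference is a log2 fold change from limma, with p adjusted by Benjamini-Hochberg over 25541 probes and called below 0.05. The spread behind each p is that between arrays within groups and not between clones. A p for the mean of the clones therefore holds for these 2 clones only. The 75th percentile lay at 1055 and 949 intensity units in clone 2, 569 and 832 in clone 3, and 324 and 363 in shControl, and 58.2% to 68% of probes were well above background. On this scale the median probe was itself shifted by −0.57 in the mean of the clones against shControl, −0.72 in clone 2, −0.41 in clone 3 and 0.36 in clone 3 against clone 2, so differences are also given relative to that median. The first slide held both shControl arrays and the other slide all 4 shTug1 arrays. The effect of the hairpin and that of the slide therefore cannot be told apart, and only clone 3 against clone 2 was within a slide. The first shControl array stood apart on the first principal component, at −193, against −63.5 for the second and 2.78 to 116 for the shTug1 arrays. Tug1 did not follow its label: its probe detected on all arrays was at −1.86 and −1.88 in clone 2, −3.10 and −3.23 in clone 3, and −2.88 and −2.49 in shControl (log2 fold change of the mean of the clones 0.16, adjusted p = 0.654), so shTug1 is used only as the arrays' label. Another Tug1 probe was not well above background in shControl but was on both clone 2 arrays, at least 2.76-fold higher (adjusted p = 0.0172), and the last was below background throughout.

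The podocyte label was checked against markers. Of 15 podocyte markers, 11 were well above background on all 6 arrays, among them Nphs1 (nephrin), Wt1 and Synpo, and Trpc6 alone was on none. Podxl was well above background on 1 clone 2 array only, Tcf21 on 1 clone 3 array only, and Magi2 on 1 array of each clone and both shControl arrays. Of 14 tubular and parietal epithelial markers 6 were on all arrays, and Epcam, Krt8, Krt19 and Slc12a1 were on none. Mesenchymal markers were well above background on all arrays for 9 of 12 genes, endothelial markers for 4 of 6 and immune markers for 3 of the 5 on the array. Over the array 19795 of 39429 probes were well above background on all 6 arrays, so these counts alone do not set a cell type apart. The summed levels of each list, in multiples of each array's 75th percentile, moved with the groups. Podocyte markers summed to 74.6 to 77.4 in clone 2, 68.6 to 71.0 in clone 3 and 124 to 142 in shControl. Tubular markers summed to 34.6 to 36.3, 32.0 to 54.8 and 107 to 110 in the same order, and mesenchymal markers to 859 to 927, 959 to 1260 and 1720 to 1760. Endothelial markers summed to 2.70 to 3.09, 2.99 to 3.42 and 5.80 to 6.17, and immune markers to 2.68 to 2.69, 3.26 to 4.00 and 7.97 to 13.3. All 5 sums were lower in both clones on this scale, on which the median probe was lower too. The largest values weigh most in such a sum, those of Actn4 for the podocyte and Aqp1 for the tubular markers. With quantile normalization these 2 genes gave 0.01 and −0.88 in the mean of the clones (limma adjusted p = 0.975 and 0.101). With quantile normalization the mesenchymal list had 0 probes called lower in limma in the mean of the clones (1 at an unadjusted p under 0.05) and 1 higher, for S100a4 (log2 fold change 1.06, adjusted p = 0.0213). The part of these markers in the results below was not tested. In RNA from a whole culture, fewer cells of a type and less RNA per cell cannot be told apart.

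**Figure D1:**
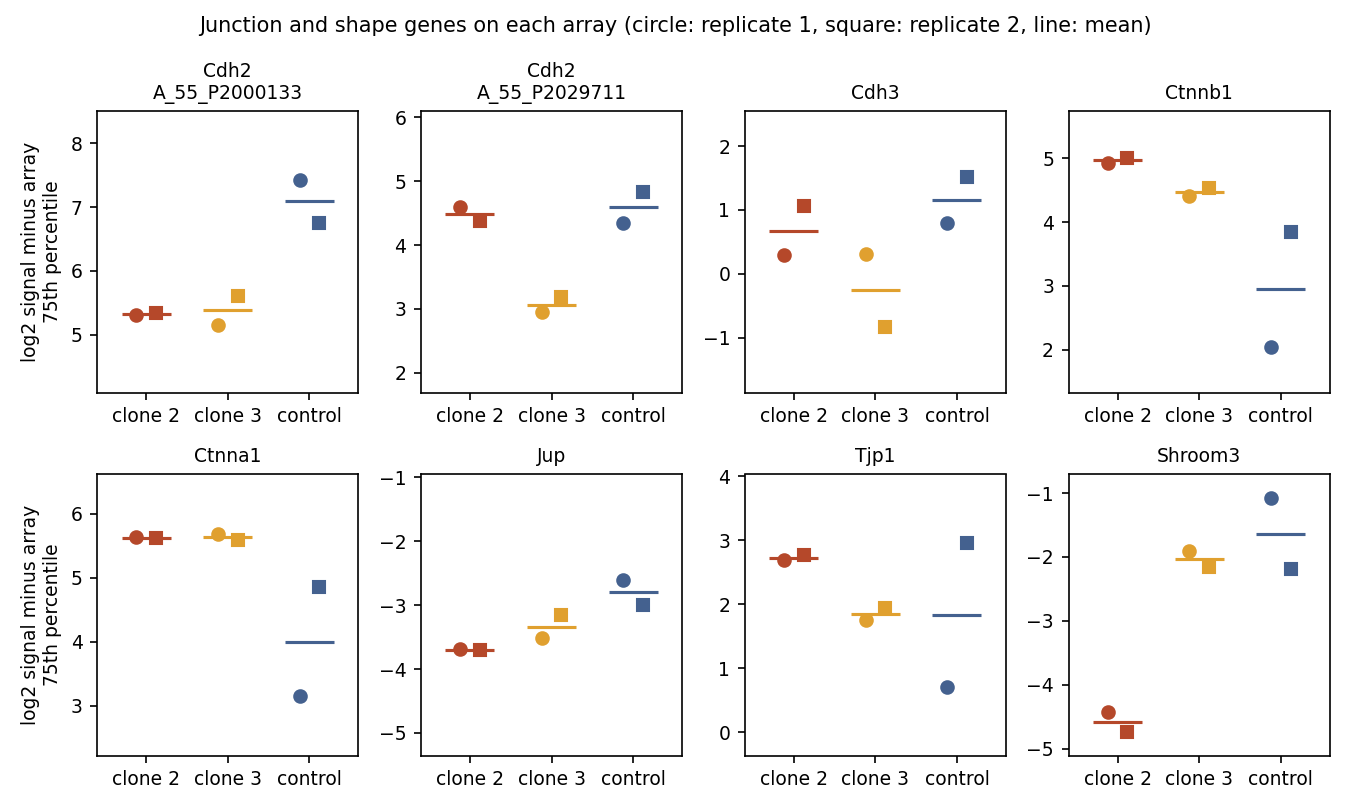
Log2 intensity relative to each array's 75th percentile (vertical axis) for the 8 tested probes of Cdh2, Cdh3, Ctnnb1, Ctnna1, Jup, Tjp1 and Shroom3, by group from left to right in each panel (clone 2, clone 3, shControl). Circles are replicate 1, squares replicate 2 and lines group means. Shroom3 lay lowest on both clone 2 arrays, at −4.42 and −4.74, and the 2 shControl arrays lay far apart for Ctnnb1, Ctnna1 and Tjp1.

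Shroom3 gave the widest gap between the clones. Its probe was at −4.42 and −4.74 in clone 2, −1.91 and −2.15 in clone 3, and −1.08 and −2.19 in shControl. In raw terms these were 49.3 and 35.5 intensity units in clone 2, 152 and 188 in clone 3, and 153 and 79.6 in shControl. Both clone 2 arrays lay below every other array, whereas the clone 3 arrays lay within the shControl range. In clone 2 Shroom3 fell by 2.95 on the log2 scale against shControl (7.71-fold lower, SE 0.44, limma adjusted p = 0.00801), or −2.22 relative to the median probe, and this was called under all 14 settings tried, with log2 fold changes of −3.50 to −1.96. Those settings include fits that leave out 1 array. In such a fit 1 array remains in its group, so the p holds no spread within that group. In clone 3 the difference from shControl was −0.39 (95% interval −1.42 to 0.63, adjusted p = 0.546). It was −0.95 without shControl replicate 2 and 0.16 without shControl replicate 1. Clone 3 against clone 2, on 1 slide, gave 2.55 (5.87-fold higher in clone 3, SE 0.44, 95% interval 1.53 to 3.58, adjusted p = 0.0373), which tests the difference between the clones directly. That call held in 7 of 14 settings, with 1.55 to 2.71. It was lost with quantile normalization, with the deposited series values, and with a stricter filter or none. It was also lost without clone 2 replicate 2 (2.39) or without clone 3 replicate 1 (2.43) or 2 (2.67). The mean of the clones, −1.67 (adjusted p = 0.0189), averages these unlike values and was not called without either clone 3 array (−1.73 and −1.61).

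Shroom3 has 2 starts in the RefSeq promoter table (GRCm38.p6), and both are shown because the hairpin clones differed at this gene and the probe alone does not say from which start the transcript came. The annotated gene begins at base 92683435, before both windows, and its beginning lies in neither of them. Each window runs from 250 bases before to 50 bases after a start, and capitals mark matches, on either strand, to the E-box CAGGTG, known to bind Snail and Zeb factors, and to the GC box GGGCGG, known to bind Sp factors. Read on the other strand, the E-box is written CACCTG.
The GC box then reads CCGCCC.
Shroom3 at chr5:92809132-92809431, plus strand: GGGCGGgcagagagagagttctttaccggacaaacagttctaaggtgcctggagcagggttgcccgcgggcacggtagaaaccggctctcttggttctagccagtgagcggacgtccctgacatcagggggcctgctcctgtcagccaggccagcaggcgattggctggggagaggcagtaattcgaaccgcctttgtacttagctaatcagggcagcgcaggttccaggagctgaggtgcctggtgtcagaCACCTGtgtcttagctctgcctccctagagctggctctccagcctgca
Shroom3 at chr5:92897743-92898042, plus strand: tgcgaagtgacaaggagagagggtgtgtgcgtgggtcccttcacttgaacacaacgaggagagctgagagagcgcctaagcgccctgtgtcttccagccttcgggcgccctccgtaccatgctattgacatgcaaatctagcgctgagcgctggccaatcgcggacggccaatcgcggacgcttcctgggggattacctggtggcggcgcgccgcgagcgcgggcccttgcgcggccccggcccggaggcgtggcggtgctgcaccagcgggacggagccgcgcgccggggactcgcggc
The first window held 1 CACCTG and 1 GGGCGG and the second window held neither. Over the 32851 promoters of the table, 20.2% held the E-box and 35.7% the GC box, and no 2 matches in these windows overlapped. A match is a description of the sequence and not a site of binding.

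Among the cadherins, Cdh2 (N-cadherin) and Cdh3 (P-cadherin, a cadherin located at the slit diaphragm) were detected on every array, and Cdh1 (E-cadherin, the cadherin of most mature epithelia) was not. Cdh2 had 2 probes. The first (A_55_P2000133) was at 5.31 and 5.34 in clone 2, 5.16 and 5.61 in clone 3, and 7.43 and 6.75 in shControl. All 4 shTug1 arrays lay below both shControl arrays. Its log2 fold change was −1.77 in clone 2 (SE 0.38, adjusted p = 0.0161) and −1.71 in clone 3 (SE 0.38, adjusted p = 0.0401), and −1.17 in the mean of the clones relative to the median probe. Its unscaled intensities overlapped, at 41810 and 38570 units in clone 2, 20310 and 40740 in clone 3, and 55990 and 39170 in shControl. With quantile normalization the calls were lost, at −0.50 in clone 2 (adjusted p = 0.213) and −1.01 in clone 3 (adjusted p = 0.0812). Leaving out either array of the same clone also ended the call, at −1.75 and −1.78 in clone 2 and −1.48 and −1.93 in clone 3, as did leaving out shControl replicate 1 in clone 3 (−1.37).

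The second Cdh2 probe (A_55_P2029711) separated the clones instead. It was at 4.60 and 4.37 in clone 2, 2.95 and 3.18 in clone 3, and 4.35 and 4.83 in shControl. The clone 2 arrays lay among the shControl values and both clone 3 arrays below them. It fell by 1.52 in clone 3 against shControl (SE 0.35, adjusted p = 0.0427; 0.148 with quantile normalization). That call was lost without any 1 of the 4 shTug1 arrays, at −1.41 to −1.63 (adjusted p = 0.0578 to 0.263), and its difference in clone 2 was −0.10 (95% interval −0.93 to 0.72, adjusted p = 0.815), which turned to 0.92 with quantile normalization (adjusted p = 0.126). Clone 3 against clone 2 gave −1.42 (95% interval −2.24 to −0.59), which did not pass after adjustment (adjusted p = 0.121). The probes of Cdh2 thus disagreed in clone 2, and both were called lower in clone 3. Cdh3 was at 0.29 and 1.06 in clone 2, 0.31 and −0.83 in clone 3, and 0.80 and 1.51 in shControl. Clone 2 overlapped both other groups, whereas both clone 3 arrays lay below both shControl arrays. No comparison passed, with −0.48 in clone 2 (95% interval −1.67 to 0.71, adjusted p = 0.443) and −1.42 in clone 3 (−2.61 to −0.23, adjusted p = 0.101).

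Cdh1 was printed in 10 spots of 1 probe on each array, and the probe was well above background on none. A single spot of the 10 was well above background on the first clone 3 array and on the second shControl array, and no spot was elsewhere. The median spot had 6.81 and 5.02 intensity units in clone 2, 4.12 and 4.66 in clone 3, and 4.05 and 4.55 in shControl, below the dimmest probe well above background on the same arrays, at 22.1 and 18.9, 14.2 and 13.8, and 19.0 and 16.1 units. Neither an order of the groups nor a fold can be given for it. An E-cadherin message at or below this level was not detectable here, in any group.

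**Figure D2:**
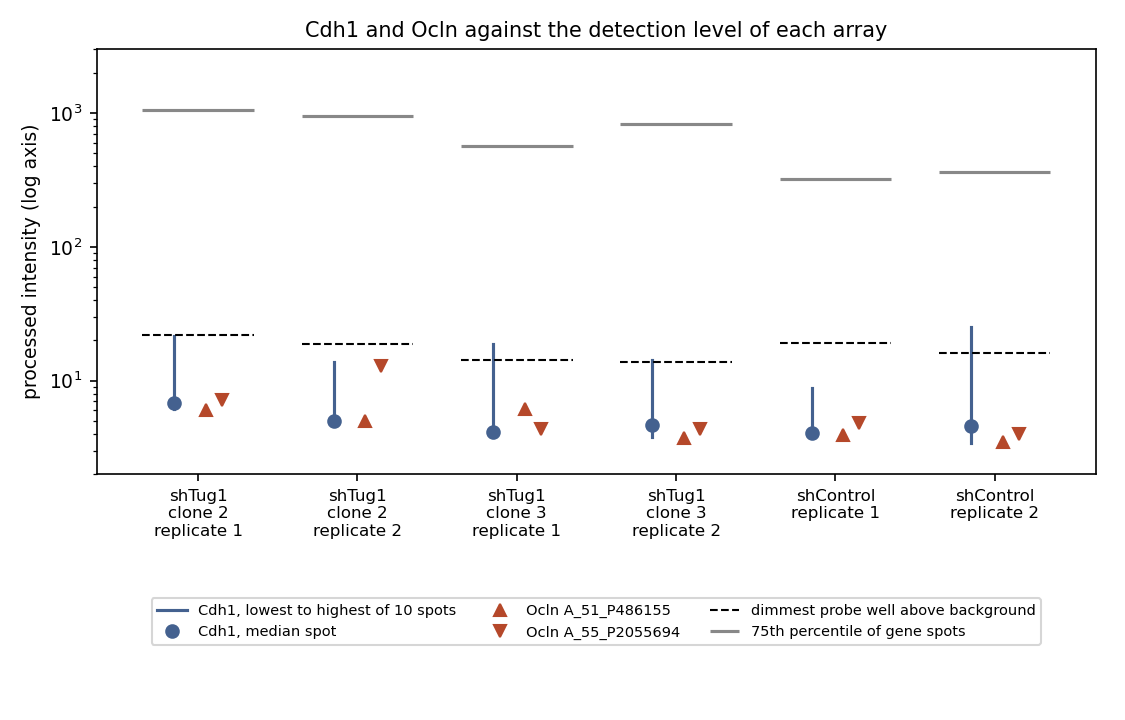
Processed intensity on a log axis for the 10 Cdh1 spots (line from lowest to highest, circle at the median) and the 2 Ocln probes (triangles) on each array, clone 2, clone 3 and shControl from left to right. Dashed lines mark the dimmest probe well above background and grey lines the 75th percentile of gene spots of the same array. Every Cdh1 median and every Ocln value lay below the dashed line.

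Of the cytoplasmic partners, β-catenin and αE-catenin lay higher on all 4 shTug1 arrays than on either shControl array. Ctnnb1 was at 4.92 and 5.01 in clone 2, 4.41 and 4.53 in clone 3, and 2.05 and 3.84 in shControl. Ctnna1 was at 5.63 and 5.62 in clone 2, 5.68 and 5.59 in clone 3, and 3.15 and 4.85 in shControl. Within each clone the SD was at most 0.09 for both genes, whereas the shControl arrays lay far apart, with SDs of 1.26 for Ctnnb1 and 1.2 for Ctnna1. In clone 2 Ctnnb1 rose by 2.02 (4.05-fold, SE 0.56, adjusted p = 0.0265) and Ctnna1 by 1.63 (3.09-fold, SE 0.54, adjusted p = 0.0440). In clone 3 the values were 1.52 (95% interval 0.22 to 2.83, adjusted p = 0.105) and 1.64 (0.38 to 2.90, adjusted p = 0.0844), which did not pass. For the mean of the clones both passed, at 1.77 (SE 0.49, adjusted p = 0.0281) and 1.64 (SE 0.47, adjusted p = 0.0313), or 2.34 and 2.21 relative to the median probe. The first shControl array decided much of this size. Without it the mean differences were 0.88 for Ctnnb1 and 0.79 for Ctnna1, and without the second shControl array 2.66 and 2.48. Without either clone 3 array both mean calls were lost with little change in size, at 1.80 and 1.74 for Ctnnb1 and 1.61 and 1.66 for Ctnna1, and the clone 2 calls were lost without any 1 of the 4 shTug1 arrays (1.97 to 2.06 and about 1.63). Clone 3 against clone 2 gave −0.49 for Ctnnb1 (95% interval −1.80 to 0.81, adjusted p = 0.583) and 0.01 for Ctnna1 (−1.25 to 1.27, adjusted p = 0.991).

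The promoter of Ctnnb1 at its outermost start in the same table is given for comparison with Shroom3, since the 2 genes moved in opposite directions in clone 2. It held 3 GC boxes and no E-box, in the notation used above.
Ctnnb1 at chr9:120933150-120933449, plus strand: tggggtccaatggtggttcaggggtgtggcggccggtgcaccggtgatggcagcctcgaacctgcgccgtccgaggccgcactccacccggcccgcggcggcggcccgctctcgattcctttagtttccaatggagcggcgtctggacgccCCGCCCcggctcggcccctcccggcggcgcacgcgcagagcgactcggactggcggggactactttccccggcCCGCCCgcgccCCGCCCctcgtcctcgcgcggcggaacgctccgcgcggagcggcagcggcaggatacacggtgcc
Its G and C content was 75.3%, against 60.3% and 68.7% in the Shroom3 windows and a median of 52.7% over the table.

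Plakoglobin, the desmosomal relative of β-catenin, went the other way from β-catenin without passing the test. Jup was at −3.69 and −3.70 in clone 2, −3.52 and −3.15 in clone 3, and −2.61 and −2.99 in shControl. All 4 shTug1 arrays lay below both shControl arrays, with −0.71 for the mean of the clones (95% interval −1.42 to −0.01, adjusted p = 0.0916). That is −0.14 relative to the median probe, so most of the difference was shared with the array as a whole on this scale. By clone, the differences were −0.90 in clone 2 (adjusted p = 0.0687) and −0.53 in clone 3 (adjusted p = 0.300).

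At the tight junction, Tjp1 was detected on all arrays and Ocln on none. Tjp1 was at 2.69 and 2.77 in clone 2, 1.76 and 1.94 in clone 3, and 0.70 and 2.96 in shControl. Its shControl arrays spanned all the shTug1 values (SD 1.60), so no direction can be given. The mean of the clones differed by 0.46 (95% interval −0.88 to 1.80, adjusted p = 0.526). The difference was −0.67 without shControl replicate 1 and 1.59 without shControl replicate 2. Both clone 3 arrays lay below both clone 2 arrays, at −0.87 (95% interval −2.42 to 0.67, adjusted p = 0.442). The 2 Ocln probes were well above background on no array and were not tested.

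Ocln has 2 starts in the same table. The window shown is not that of the outermost start. It is shown because it holds E-boxes of the kind searched, although the transcript was not detected in these cultures.
Ocln at chr13:100552449-100552748, minus strand: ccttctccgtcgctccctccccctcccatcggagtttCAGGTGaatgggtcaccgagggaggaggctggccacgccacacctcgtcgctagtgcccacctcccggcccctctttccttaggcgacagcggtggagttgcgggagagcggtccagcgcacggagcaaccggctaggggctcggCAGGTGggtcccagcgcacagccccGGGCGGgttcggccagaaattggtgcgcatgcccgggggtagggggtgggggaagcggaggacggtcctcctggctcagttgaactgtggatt
This window held 2 CAGGTG and 1 GGGCGG. The window of the outermost start, chr13:100552669-100552968, held 1 CAGGTG and 1 GC box. Windows were read here for 5 of the 9 genes, 8 windows in all, and Jup, Tjp1, Ctnnb1, Ocln and Shroom3 each had at least 1 with a GC box. No window of the remaining genes is described, and the count does not show that they lack one in the table.

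Counted together, 8 probes of 7 genes were tested, all well above background on all 6 arrays. For the mean of the clones against shControl 2 probes were higher (Ctnnb1 and Ctnna1) and 2 lower (Cdh2 A_55_P2000133 and Shroom3), beside 39.4% of all probes called, 11.8% higher and 27.6% lower. In clone 2 the same 4 probes were called, beside 43.2% of all probes (12.4% higher, 30.9% lower). In clone 3 only the 2 Cdh2 probes were called, both lower, beside 8.99% of all probes (4.78% higher, 4.21% lower). In clone 3 against clone 2, Shroom3 alone was called, higher, beside 1.86% of all probes (0.384% higher, 1.48% lower). The 3 comparisons with shControl share its 2 arrays. The shares of the tested probes called in the first 2 comparisons are near the background, and nothing is read from them about the genes as a group. The median log2 fold changes of the 8 probes were −0.76, −0.29, −0.46 and −0.24 in the order above, against −0.57, −0.72, −0.41 and 0.36 for all probes. The probes of 2 genes (Ctnnb1 and Ctnna1) had all shTug1 arrays above both shControl arrays, as 14.0% of all probes did, and Cdh2 (A_55_P2000133) and Jup had all of them below, as 40.2% did. Both clone 3 arrays exceeded both clone 2 arrays for Jup and Shroom3 (56.4% of all probes) and lay below them for Cdh2 (A_55_P2029711), Ctnnb1 and Tjp1 (18.6%).

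**Figure D3:**
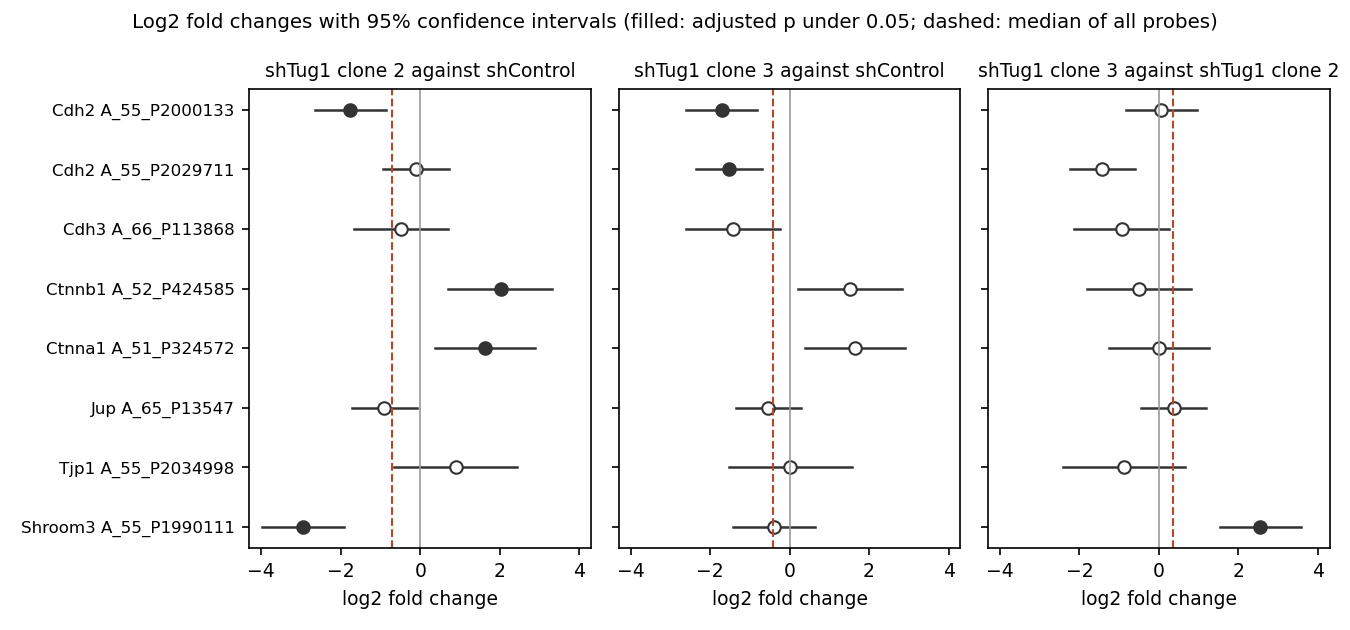
Log2 fold change with 95% interval (horizontal axis) of the 8 tested probes in clone 2 against shControl, clone 3 against shControl and clone 3 against clone 2, with the dashed line at the median of all 25541 probes and filled points where the limma adjusted p was below 0.05. Shroom3 passed in clone 2 and in clone 3 against clone 2, at −2.95 and 2.55, and Ctnnb1 and Ctnna1 lay to the right of the median line against shControl.

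The wider junction machinery was read through fixed lists, in the mean of the clones against shControl. Of 16 tested probes for other cytoplasmic adherens junction proteins and nectins, 5 rose, 3 fell and 8 did not pass, with a median of 0.39 against −0.57 for all probes. Ajuba, a LIM protein that binds α-catenin, rose by 3.55 (SE 0.49, adjusted p = 0.00806), at 1.87 and 1.84 in clone 2, 0.59 and 1.34 in clone 3, and −2.96 and −1.33 in shControl. Pkp4, a p120-catenin relative, rose by 2.24 (adjusted p = 0.00848). One probe of Vcl, vinculin, which binds α-catenin under tension, rose by 1.95 (adjusted p = 0.0189), which came from clone 2: it was at 3.17 and 3.32 there, −0.90 and 0.03 in clone 3 and −1.17 and 0.09 in shControl. Its clone 3 against clone 2 difference was −3.68 (adjusted p = 0.0217), while a second Vcl probe gave 0.98 (adjusted p = 0.347), so the probes of vinculin disagreed. One probe of Ctnnal1, an α-catenin relative, fell by 1.35, Wtip, a LIM protein of podocyte junctions, by 1.26 and Ctnna2 (αN-catenin) by 1.05, and with quantile normalization none of the 3 passed (−0.57, −0.49 and −0.96). The other Ctnnal1 probe, not well above background in shControl, gave a difference of the opposite sign that did not pass (adjusted p = 0.209). Ctnnd1 (p120-catenin), which holds cadherins at the surface, gave −0.46 (adjusted p = 0.290).

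Of 6 probes of other cadherins 2 fell, 0 rose and 4 did not pass (median −0.80). Cdh16, the kidney-specific cadherin of tubules, fell by 2.23 (SE 0.37, adjusted p = 0.0113), at 5.04 and 5.15 in clone 2, 6.14 and 5.77 in clone 3, and 8.28 and 7.24 in shControl. Cdh6, a cadherin of the developing nephron, fell by 1.14 (adjusted p = 0.0370). Both kept their direction with quantile normalization, at −1.22 and −1.08. Of 8 desmosome probes 1 was called lower, for Dsp. That probe was detected in clone 2 and in clone 3 but on neither shControl array, so no fall is read from it and no fold is given. With quantile normalization the Dsp probe gave −0.45 and did not pass (limma adjusted p = 0.125). Of 38 tight junction probes 9 rose, 10 fell and 19 did not pass (median −0.46, and 0.06 with quantile normalization, where the median of all probes was −0.18). Cldn15, a claudin, fell by 1.95 and Arhgef2, a GTPase exchange factor held at tight junctions, by 1.68 (adjusted p = 0.0176 and 0.0139). The polarity genes Patj and Pard3 had probes that disagreed. Of 5 Patj probes 2 rose, 1 of them by 0.97 and the other not well above background in shControl (at least 2.80-fold higher), 1 fell by 1.93 and 2 did not pass. Of 4 Pard3 probes 2 rose, 1 of them by 1.5 and the other not well above background in shControl (at least 1.64-fold higher), and 2 fell, by 1.58 and 1.11. The remaining tight junction rises were of probes not well above background on both shControl arrays. The largest was of Magi3, at least 2.21-fold higher (limma adjusted p = 0.00598).

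Of 21 probes for apical constriction and cell shape 4 rose, 6 fell and 11 did not pass (median −0.40, and 0.29 with quantile normalization). Of 4 probes for the relatives of Shroom3, 2 fell. A probe of Shroom2 was at 3.05 and 3.03 in clone 2, 3.62 and 3.59 in clone 3, and 5.56 and 4.76 in shControl, and fell by 1.84 (SE 0.33, adjusted p = 0.0128; −1.05 with quantile normalization). The other Shroom2 probe gave −0.66 (adjusted p = 0.110), Shroom4 fell by 1.43 (adjusted p = 0.0252; −1.10 and 0.0517 with quantile normalization) and Shroom1 gave −0.89 (adjusted p = 0.0895). None of them differed between the clones past the threshold: clone 3 against clone 2 gave 0.57 and 0.21 for the Shroom2 probes, 0.62 for Shroom4 and 0.57 for Shroom1 (adjusted p = 0.406, 0.699, 0.415 and 0.443). Whether that gap differs between Shroom3 and its relatives was not tested. Myl9, a regulatory myosin light chain, fell by 1.64 (adjusted p = 0.0229; −0.59, adjusted p = 0.161, with quantile normalization) while the probes of Enah, an actin filament elongator, disagreed. One fell by 1.56 (adjusted p = 0.0202) and the other gave 1.16 (adjusted p = 0.0801), and 1.67 in clone 2 (adjusted p = 0.0401). Rhoa, a GTPase that promotes actomyosin contraction, had one probe that rose by 1.80 (adjusted p = 0.0264) and another at −0.55 (adjusted p = 0.180).

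**Figure D4:**
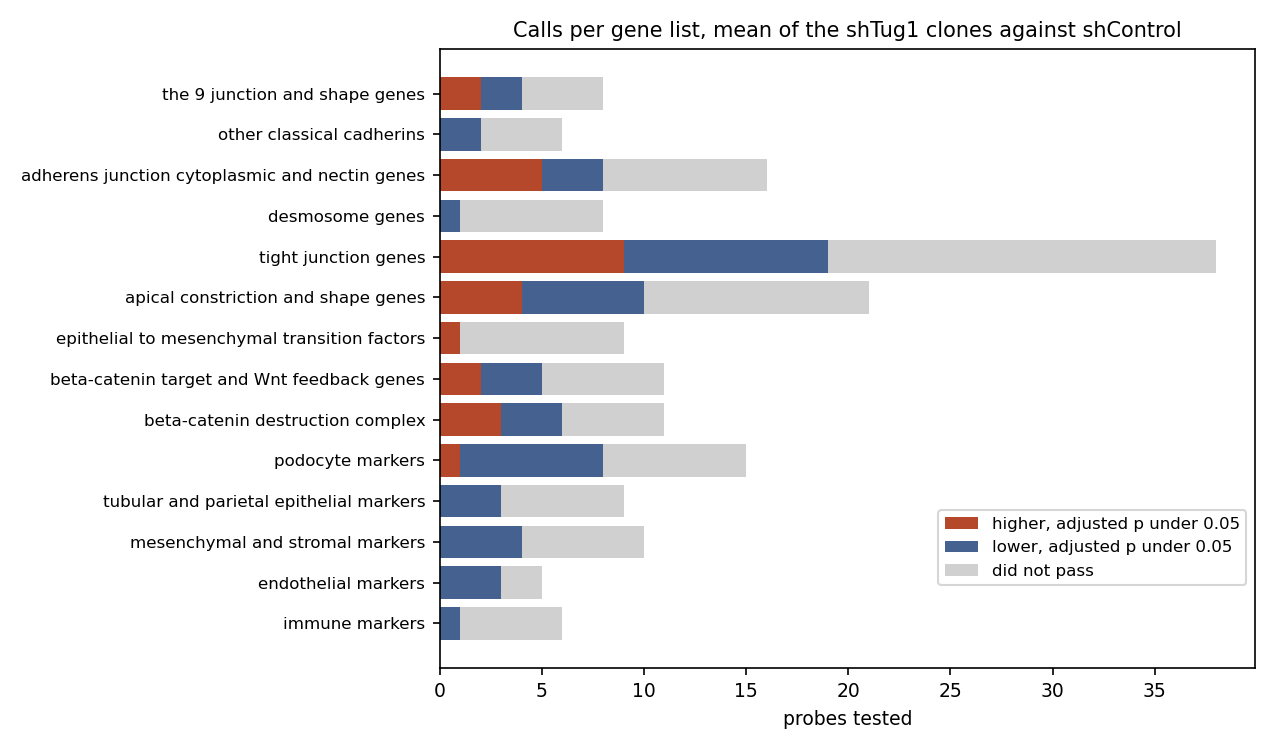
Number of tested probes that rose, did not pass or fell in the mean of the clones against shControl (horizontal axis), for the 9 genes and each list. Of 38 tight junction probes 9 rose and 10 fell, of 16 adherens junction probes 5 rose and 3 fell, and of 15 podocyte marker probes 1 rose and 7 fell.

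For the nuclear side of β-catenin, 2 of 11 probes of Wnt target and feedback genes rose, 3 fell and 6 did not pass (median −0.37). Ccnd1, cyclin D1, rose by 2.44 (SE 0.37, adjusted p = 0.00954), at 6.42 and 6.04 in clone 2, 6.49 and 6.78 in clone 3, and 3.49 and 4.49 in shControl. The feedback inhibitors Notum and Rnf43 fell by 1.71 and 1.67 (adjusted p = 0.0141 and 0.0134), and the transcription factor Sp5 by 1.32 (adjusted p = 0.0191). Axin2, the feedback gene most often used as a Wnt reporter, gave −0.37 (adjusted p = 0.357). In the destruction complex that degrades β-catenin, 3 of 11 probes rose, 3 fell and 5 did not pass. Amer1 fell by 1.73, the kinase gene Gsk3a by 1.52 and one probe of Btrc, the ubiquitin ligase subunit, by 1.35 (adjusted p = 0.0182, 0.0214 and 0.0440), of which Amer1 alone also passed with quantile normalization (adjusted p = 0.0259, against 0.0613 and 0.0837). The other Btrc probe gave 0.67 (adjusted p = 0.0938), so its probes disagreed in direction. The 3 rises were of Axin1 and of one probe each of Csnk1a1 and Gsk3b. None of these was well above background on both shControl arrays, so no fold is given. All 3 also passed with quantile normalization (limma adjusted p = 0.0136, 0.015 and 0.0206). The other Csnk1a1 probe gave 0.11 (adjusted p = 0.855), and the other Gsk3b probes −0.63 and −1.02 (adjusted p = 0.269 and 0.068).

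The list of epithelial to mesenchymal transition factors held Snail, Zeb and Twist genes, which are known to repress Cdh1 in other cells, and Grhl2, Ovol1 and Ovol2, which are known to oppose that transition. Of its 9 tested probes Zeb1 rose and 8 did not pass (median 0.38 against −0.57), and the only one tested for the opposing genes, Ovol2, gave 0.38 (adjusted p = 0.297). Zeb1 was at 1.27 and 0.92 in clone 2, 1.04 and 1.36 in clone 3, and −1.22 and 0.16 in shControl, a rise of 1.68 (SE 0.43, adjusted p = 0.0235). Snai1 gave 0.29, Snai2 −0.69 and Twist1 −0.09 (adjusted p = 0.452, 0.0851 and 0.882). Zeb2 gave 0.83 (adjusted p = 0.274) over clones that differed from each other, at 0.92 and 0.26 in clone 2, −2.84 and −2.30 in clone 3, and −2.91 and −0.73 in shControl (clone 3 against clone 2 −3.16, adjusted p = 0.0750). Of 10 mesenchymal marker probes 0 rose, 4 fell and 6 did not pass (median −0.72, and 0.04 with quantile normalization). Tagln, Acta2 and Col1a2 fell by 1.3, 1.2 and 1.15 (adjusted p = 0.0203, 0.0217 and 0.0324), while Vim gave −0.09 (adjusted p = 0.813), but with quantile normalization Tagln was at −0.07, Acta2 turned to 0.03 and Vim to 1.03 (adjusted p = 0.0640).

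Of 15 podocyte marker probes 7 fell, 1 rose and 7 did not pass (median −1.01), beside 27.6% of all probes called lower. With quantile normalization 4 fell and 1 rose (median −0.60 against −0.18 for all probes). Lmx1b, a podocyte transcription factor, fell on both its probes, by 1.98 and 1.65 (adjusted p = 0.0163 and 0.0154), and Wt1 by 1.33 (adjusted p = 0.0185). For Synpo, synaptopodin, one probe rose by 2.41 (adjusted p = 0.0210) and the other fell by 1.25 (adjusted p = 0.0417), and Nphs1, nephrin, gave −1.15 (adjusted p = 0.0617). Of the tubular markers 3 of 9 probes fell, Aqp1 by 1.77, Aqp2 by 1.09 and Umod, which was well above background on no clone 3 array. Aqp2 and Umod differed between the clones in opposite directions. In clone 3 against clone 2, Aqp2 was at 2.56 (adjusted p = 0.0256) and Umod at least 2.88-fold lower (adjusted p = 0.0233). Of the endothelial markers 3 of 5 probes were called lower, with Kdr at −1.03 and Ehd3 at −1.01. The third was another Kdr probe, well above background on neither shControl array, so no fall is read from it. With quantile normalization 0 of 5 passed in limma (adjusted p = 0.0518 and 0.101 for the Kdr probes and 0.0854 for Ehd3, with 3 at an unadjusted p under 0.05). Of the immune markers 1 of 6 probes fell, one for Itgam, at −2.04 (adjusted p = 0.00958). The other Itgam probes gave −0.75 and −0.96 and did not pass (adjusted p = 0.169 and 0.19).

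The probe of another gene whose 6 array values were most like those of each detected gene was found by Pearson's r, as a description without a test, since 6 arrays in 3 groups share slide and clone. Shroom3 was most like Kcnk16 (r = 0.9987), Cdh2 like Tent4b (0.9984), Ctnnb1 like Psap (0.9993), Ctnna1 like Brwd1 (0.9993), Jup like Ly6g5b (0.999), Tjp1 like Fam107b (0.9947) and Cdh3 like Cap1 (0.9935). How common such a pattern was differed widely. Of about 14940 probes compared, 920 exceeded 0.95 with Cdh2 and 872 with Jup, against 273 with Shroom3, 74 with Tjp1 and 22 with Cdh3.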

How the data were processed

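RNA from 6 cultures was hybridised to 6 one-colour Agilent mouse arrays (Cy3), 2 per group, grouped by the sample titles. Per the file headers, the deposited processed signal is an intensity, background-subtracted by Agilent Feature Extraction 11.0.1.1. A deposited series table holds log2 values of 19819 probes made in a way not given in the sources here; 99.85% of its values were within 0.01 of a quantile normalization of the same intensities, and the largest difference was 1.69.

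Control spots and spots marked as outliers were dropped, and repeat spots averaged. Log2 intensities minus each array's 75th percentile were fitted with limma 3.58.1 in R 4.3.3 (3 groups, 3 residual df, 4.61 prior df, two-sided). Alternatives were quantile normalization, normexp (offset 50, on the median signal because the files hold no mean signal), other filters, the series table, 1 probe per gene, a replicate block and leaving out each array. Arrays give no read depth, and their number limits the precision. Symbols came from RefSeq by accession (27234 probes matched, 12195 did not). Genes named from lists were up to 3 rises and 3 falls among called probes detected on all arrays, plus a few fixed genes given whatever their values, of which 1 is not reported here. Genes and lists were chosen with earlier results of these data known. The fit was tested on simulated data. Python with matplotlib 3.10.9 and pandas 2.3.3 drew the plots.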

Additional observations from a re-analysis of the deposited data

Results flagged for a closer look

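Shroom3 is listed because its effect differed between the clones by a test of the difference itself: the clone 3 effect minus the clone 2 effect was 2.55 on the log2 scale (limma adjusted p = 0.0373). The call held in 7 of 14 settings. Both clone 3 arrays lay above both clone 2 arrays, as they did for 56.4% of all probes. The cause was not tested.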

How the results depend on the processing

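Counts of called probes moved most. Those without an array come from fits with 1 array in a group, whose spread is then not in the p. For the mean of the clones against shControl, 10051 probes were called, against 17088 with normexp and 6226 in the series table, and 718 to 16532 when an array was left out. Of the 8 probes of the junction genes 4 were called, 7 with normexp and 0 to 6 without an array. In clone 2, 11040 probes were called, against 6903 with quantile normalization, 17715 with normexp, 6226 in the series table and 4124 to 17534 without an array, and 1 to 6 of the 8. In clone 3, 2297 probes were called, against 7938 with normexp, 978 without a filter and 0 to 13103 without an array. Of the 8, 2 were called there, against 5 with normexp, 1 with 1 probe per gene, 0 with quantile normalization, without a filter and in the series table (limma, with 4, 6 and 5 at an unadjusted p under 0.05), and 0 to 6 without an array. In clone 3 against clone 2, 475 probes were called, against 142 with quantile normalization, 43 with the stricter filter, 260 without a filter, 272 with 1 probe per gene, 0 in the series table (2847 unadjusted) and 0 to 976 without an array. Of the 8, 1 was called there, against 2 with normexp, 0 in the series table and with quantile normalization, the stricter filter and no filter (2 unadjusted in each), and 0 to 2 without an array.

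The share of higher calls changed with the scale: for the mean of the clones 3009 were higher and 7042 lower, against 3446 and 3438 with quantile normalization and 2552 and 14536 with normexp.

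The second Cdh2 probe in clone 2 (−0.10) turned to 0.92 with quantile normalization and in the series table and 0.13 with normexp, and ranged over −0.34 to 0.14 without an array. In clone 3 against clone 2, the first Cdh2 probe (0.06) turned to −0.51 with quantile normalization and in the series table (−0.17 to 0.29 without an array), and Ctnna1 (0.01) to −0.59 in both and −0.062 with normexp (−0.034 to 0.056 without an array). Without an array, Tjp1 ranged over −0.67 to 1.59 in the mean of the clones, −0.23 to 2.03 in clone 2 and −1.11 to 1.15 in clone 3, and Shroom3 in clone 3 over −0.95 to 0.16, the ends being those without a shControl array. The causes were not tested. Arrays are numbered 1 and 2 in each group, but deviations of same-numbered arrays correlated at −0.0337, 0.124 and −0.0913, so the numbers were not taken as pairs; with the replicate block, the calls among the 8 probes stayed at 4, 4, 2 and 1, and those over all probes in clone 3 against clone 2 numbered 719.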
